A study of Arabidopsis thaliana with 12 samples.

Results

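The berberine bridge enzyme-like genes of Arabidopsis thaliana were examined through 10 loci chosen by name as the relatives of AT1G26390: AT1G26380, AT1G26390, AT1G26400, AT1G26410, AT1G26420, AT1G30700, AT1G30710, AT1G30720, AT4G20830 and AT4G20860. Each of the 10 had 1 probe set of its own, out of 16548 loci that had one. A further 17 loci of the family were considered for comparison, of which 14 had a probe set of their own. The family was taken up because AT1G26390 had stood out between rb10 and WT seedlings in darkness. The dark values of the genotypes are therefore given below as a description, with no p and no count of members called. Comparisons after light and between light and darkness were tested. Those with darkness use the dark arrays that chose AT1G26390, so for this locus they are not independent of the choice.

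Berberine bridge enzyme-like proteins are secreted oxidases that carry FAD, and the family is named after an enzyme of alkaloid synthesis in poppies. In Arabidopsis its members act on quite different substrates. AT1G26380 (FOX1) oxidises an intermediate of indole carbonyl nitrile synthesis, a defence pathway. AT4G20830 (OGOX1) oxidises oligogalacturonides, fragments of pectin that plants sense as a sign of cell wall damage, and AT4G20860 (CELLOX) oxidises cellodextrins, fragments of cellulose. AT1G30760, considered among the other loci, oxidises monolignols, the building blocks of lignin.

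RNA came from pools of whole Col-0 seedlings grown for 5 days in darkness on diluted MS medium without sucrose, with 1 Affymetrix array per pool. The 4 groups of 3 biological replicates were rb10 and WT seedlings exposed to white light (120 µmol per m2 per s) for 1 h, and rb10 and WT seedlings kept in the dark. Beyond its name, rb10 is not described in the labels; it is known as a mutant of RAPTOR1B, which works together with the growth-regulating kinase TOR, so the genotype rests on a single mutant line. In pools of whole seedlings, fewer cells of a type and less RNA per cell cannot be told apart.

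Signals were deposited on the log2 scale, and array medians lay between 6.72 and 6.91. RAPTOR1B (AT3G08850) read 10.89 to 11.13 in rb10 after light against 11.58 to 11.69 in WT after light, a difference of -0.66 (SE 0.15, limma adjusted p = 0.0113). In darkness rb10 replicates 1 and 2 read 11.06 and 11.08, rb10 replicate 3 read 11.60, and the WT arrays read 11.63 to 11.84. The array labelled rb10 dark replicate 3 therefore stood apart from its group and near WT, and it was kept under its label. Of the 10 berberine bridge enzyme-like loci it lay closer to the WT dark mean than to the mean of the other rb10 dark arrays for 8 (80%), and so did 65.3% of all 17481 probe sets tested. Differences that include this array are given with and without it. Markers that could show a change in tissue makeup were too few to use: 2 of 18 root markers and 0 of 7 shoot markers could be paired with a probe set. The root hair expansins EXPA7 (AT1G12560) and EXPA18 (AT1G62980) differed between rb10 and WT after light by 0.41 (SE 0.30, limma adjusted p = 0.394) and 0.68 (SE 0.28, limma adjusted p = 0.122), and their part in the results below was not tested.

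AT1G26390 was the member with the widest spread over the study, from 3.91 to 9.65 on the log2 scale, a range of 53.4-fold. In rb10 after light it read 8.85, 8.67 and 8.21, and in WT after light it read 5.37, 3.91 and 4.74. The groups were far apart, with every rb10 array above every WT array. Its mean was 8.58 ± 0.33 in rb10 and 4.67 ± 0.73 in WT (SD, n = 3 each), a difference of 3.91 (SE 1.08, limma adjusted p = 0.029), or 15-fold. It was the 9th largest rise among the 17481 probe sets. The WT signals of this locus lay at percentiles 19 to 38 of their array after light and 23 to 37 in darkness. Its folds against WT are therefore taken against rather dim signals.

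In darkness AT1G26390 read 9.20, 9.65 and 4.41 in rb10, against 4.27, 5.40 and 4.46 in WT. Replicates 1 and 2 of rb10 were above every illuminated rb10 array, while replicate 3 lay inside the WT dark values. The dark difference was 3.05 (SE 1.08) with every array and 4.72 (SE 0.43), or 26.3-fold, without rb10 dark replicate 3. That 1 array also sets the SE of the light comparison, since the fit pools the spread of the 4 groups. Without it the difference after light stayed at 3.91 with an SE of 0.39 (limma adjusted p = 0.000101). With that array kept, leaving out any 1 of the 6 light arrays gave differences of 3.52 to 4.25 that missed the threshold (limma adjusted p = 0.052 to 0.0893).

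Light itself did not move AT1G26390 past the threshold in either genotype. The dark arrays through which the locus was chosen enter these light effects and their difference, which are therefore not free of that choice. In rb10 the light effect was 0.82 (SE 1.08, limma adjusted p = 0.752), and it was -0.85 (SE 0.43, limma adjusted p = 0.363) without rb10 dark replicate 3. In WT it was -0.04 (SE 1.08), with a 95% interval of -2.43 to 2.35, or of -0.91 to 0.83 without that array. The difference of the light effects, rb10 minus WT, was 0.86 (SE 1.53) with every array and -0.81 (SE 0.58) without rb10 dark replicate 3, so that its sign turned with that array (limma adjusted p = 0.88 and 0.649).

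**Figure D1:**
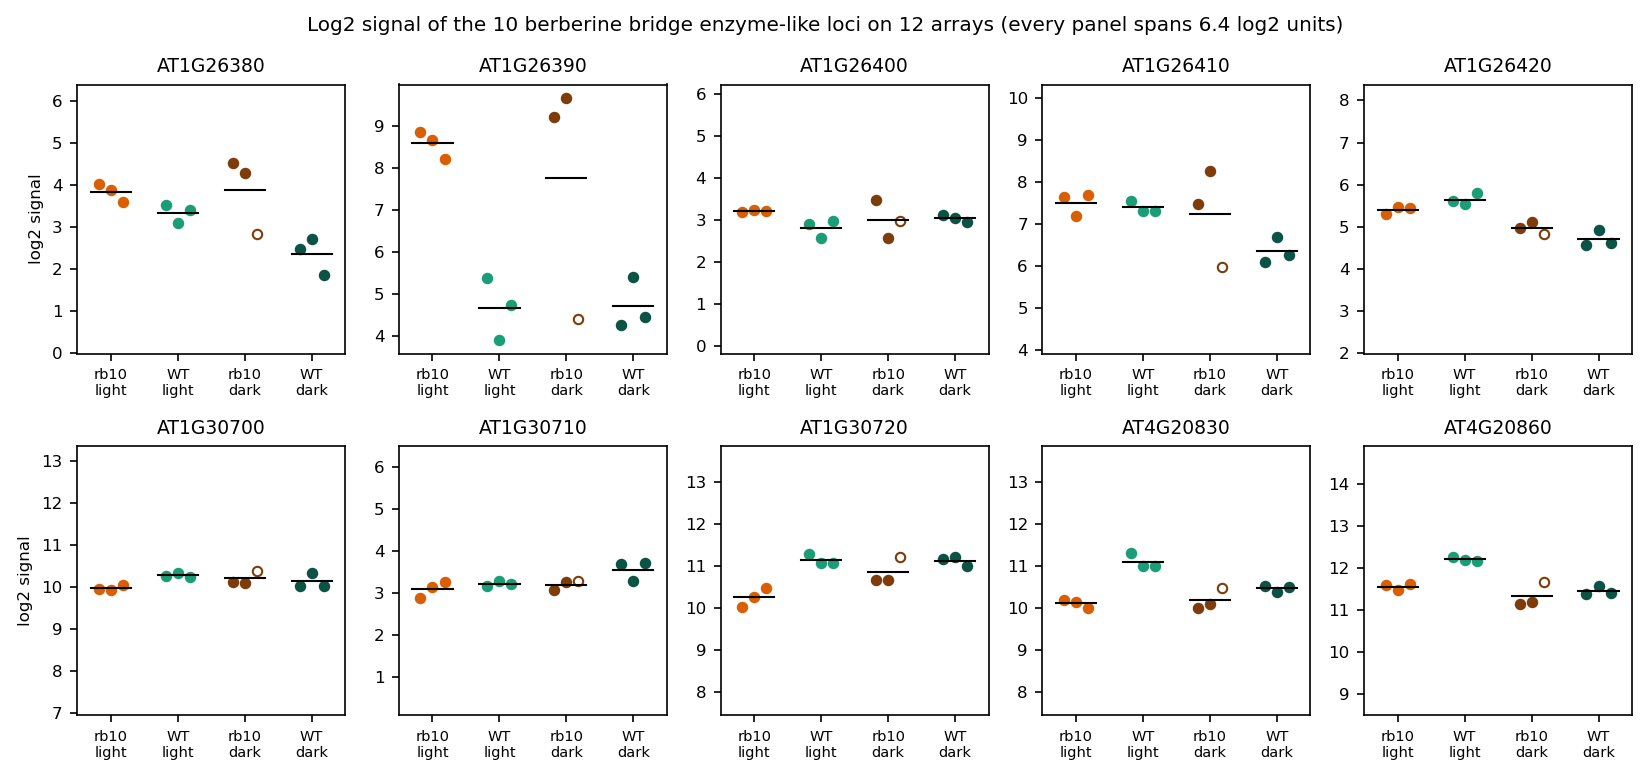
Log2 signal (vertical axis) of the 10 loci on each array, with a point per array, a bar at the group mean and the array labelled rb10 dark replicate 3 as an open circle. AT1G26390 reads 8.21 to 8.85 in rb10 after light against 3.91 to 5.37 in WT after light, and AT4G20830 and AT4G20860 are highest in WT after light.

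The 4 other genes of the same cluster on chromosome 1 (AT1G26380 to AT1G26420, which follow each other in gene order) did not share one pattern. AT1G26380, the oxidase of indole carbonyl nitrile synthesis, read 4.52, 4.27 and 2.82 in rb10 in the dark, against 2.47, 2.72 and 1.85 in WT in the dark. The rb10 dark arrays all lay above the WT dark arrays, replicate 3 by only a small margin. The dark difference was 1.52 (SE 0.38), and 2.05 (SE 0.25) or 4.13-fold without rb10 dark replicate 3.

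After light AT1G26380 read 4.02, 3.88 and 3.60 in rb10, against 3.51, 3.08 and 3.40 in WT. These groups did not overlap but lay close together, with a difference of 0.50 (SE 0.38, limma adjusted p = 0.414; 0.138 without rb10 dark replicate 3). The genotypes thus lay nearer to each other after light than in darkness. In WT the 3 light arrays all exceeded the 3 dark arrays, by 0.98 on average (SE 0.38, limma adjusted p = 0.183), and this passed without rb10 dark replicate 3 (SE 0.22, limma adjusted p = 0.0209). In rb10 the light effect was -0.04 (SE 0.38), or -0.56 (SE 0.25, limma adjusted p = 0.269) without that array. The difference of the light effects, rb10 minus WT, was -1.02 (SE 0.54, limma adjusted p = 0.483) and passed at -1.55 (SE 0.33, limma adjusted p = 0.0442) without it. All signals of AT1G26380 lay at or below the 26th percentile of their array, so these differences are between dim signals.

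AT1G26410 followed AT1G26380 in outline, at a brighter signal. It read 7.46, 8.26 and 5.96 in rb10 in the dark, against 6.08, 6.68 and 6.26 in WT in the dark. Replicate 3 of rb10 was the lowest of these arrays and the other rb10 arrays were the highest. The dark difference was 0.89 (SE 0.45) with every array and 1.52 (SE 0.26) without replicate 3.

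After light AT1G26410 read 7.63, 7.18 and 7.68 in rb10, against 7.55, 7.31 and 7.30 in WT. The genotypes overlapped there, with a difference of 0.11 (SE 0.45) and a 95% interval of -0.87 to 1.09, or of -0.41 to 0.63 without rb10 dark replicate 3. In WT light was followed by a shift of 1.05 (SE 0.45, limma adjusted p = 0.231), with no overlap between light and dark arrays. That shift passed without rb10 dark replicate 3 (SE 0.23, limma adjusted p = 0.0198). The difference of the light effects was -0.78 (SE 0.63, limma adjusted p = 0.677) and -1.41 (SE 0.35, limma adjusted p = 0.0825) without that array.

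AT1G26420 rose with light in WT. It read 5.61, 5.53 and 5.79 in WT after light, against 4.57, 4.92 and 4.62 in WT in the dark. The groups did not overlap, and the rise was 0.94 (SE 0.13, limma adjusted p = 0.000843), or 1.92-fold. In rb10 it read 5.30, 5.46 and 5.44 after light, against 4.97, 5.12 and 4.83 in the dark. That shift of 0.43 (SE 0.13) had the same sign and no overlap, but missed the threshold (limma adjusted p = 0.0731). Without rb10 dark replicate 3 it was 0.36 (SE 0.14, limma adjusted p = 0.188). The difference between the genotypes' light effects was -0.51 (SE 0.18, limma adjusted p = 0.238), or -0.58 (SE 0.18, limma adjusted p = 0.18) without that array. AT1G26400 stayed between 2.57 and 3.48 on all 12 arrays, from the 4th to the 13th percentile of signals, and was called in none of the tested comparisons, with or without rb10 dark replicate 3 (unadjusted p from 0.0677 to 0.303 with every array, limma).

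The own probe sets of AT4G20830 and AT4G20860, members that encode oligosaccharide oxidases, had their highest signals in WT after light and were lower in illuminated rb10. AT4G20830 (OGOX1) read 10.19, 10.14 and 10.01 in rb10 after light, against 11.32, 11 and 11 in WT after light. Every rb10 array lay below every WT array. The difference was -0.99 (SE 0.14, limma adjusted p = 0.00106), a level 1.99-fold lower in rb10. In the dark AT4G20830 read 10, 10.09 and 10.47 in rb10, against 10.52, 10.38 and 10.51 in WT. The dark groups overlapped through rb10 replicate 3, with a difference of -0.28 (SE 0.14), or -0.42 (SE 0.13) without it.

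Against these dark values, AT4G20830 rose by 0.64 in WT after light (SE 0.14, limma adjusted p = 0.0186). A second probe set, which the annotation pairs with both AT4G20840 and AT4G20830, fell by 0.81 in the same comparison (SE 0.17, limma adjusted p = 0.0129). Between rb10 and WT after light that shared probe set differed by 0.38 (SE 0.17, limma adjusted p = 0.145). Both the rise and the lower level in rb10 thus hold for the probe set of AT4G20830 alone. In rb10 the light effect on the latter was -0.07 (SE 0.14), with a 95% interval of -0.38 to 0.24, or of -0.21 to 0.35 without rb10 dark replicate 3. The test of the difference of these light effects gave -0.71 (SE 0.20), which missed the threshold (limma adjusted p = 0.119), and -0.57 (SE 0.17, limma adjusted p = 0.149) without that array. The WT call was also lost without WT dark replicate 2 (0.59, limma adjusted p = 0.0756), WT dark replicate 3 (0.66, limma adjusted p = 0.0502) or WT light replicate 1 (0.53, limma adjusted p = 0.0799).

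AT4G20860 (CELLOX) read 11.58, 11.46 and 11.61 in rb10 after light, against 12.26, 12.19 and 12.15 in WT after light. Again no rb10 array reached the WT values, and the difference was -0.65 (SE 0.14, limma adjusted p = 0.00844), a level 1.57-fold lower in rb10. In the dark it read 11.13, 11.19 and 11.66 in rb10, against 11.37, 11.56 and 11.40 in WT. Replicate 3 of rb10 was the highest dark array and the other rb10 arrays were the lowest. The dark difference was -0.11 (SE 0.14), or -0.28 (SE 0.10) without replicate 3.

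Light raised AT4G20860 in WT by 0.76 (SE 0.14, limma adjusted p = 0.00589), or 1.69-fold. In rb10 the effect was 0.22 (SE 0.14, limma adjusted p = 0.427), and 0.39 (SE 0.10, limma adjusted p = 0.0565) without rb10 dark replicate 3. The difference of the light effects was -0.53 (SE 0.19) and did not pass (limma adjusted p = 0.26), nor did it at -0.37 (SE 0.14, limma adjusted p = 0.276) without that array. For AT4G20830 and AT4G20860 alike, the WT light arrays enter the comparison with WT darkness and that with illuminated rb10, so these results are not independent of each other.

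The members at AT1G30700 to AT1G30720, a second cluster on chromosome 1, showed 1 call. AT1G30720 read 10.04, 10.26 and 10.48 in rb10 after light, against 11.28, 11.08 and 11.07 in WT after light. The groups were apart, with a difference of -0.88 (SE 0.17, limma adjusted p = 0.00481), a level 1.84-fold lower in rb10. In the dark it read 10.68, 10.68 and 11.22 in rb10, against 11.16, 11.21 and 11.01 in WT. There replicate 3 of rb10 was the highest array and the other rb10 arrays were the lowest, with a dark difference of -0.27 (SE 0.17), or -0.45 (SE 0.14) without replicate 3.

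AT1G30720 did not respond to light past the threshold in WT (0.01, SE 0.17, 95% interval -0.35 to 0.38). In rb10 its light arrays all lay below its dark arrays, a shift of -0.60 (SE 0.17, limma adjusted p = 0.0552), or -0.42 (SE 0.14, limma adjusted p = 0.135) without rb10 dark replicate 3. The difference of its light effects, rb10 minus WT, did not pass at -0.61 (SE 0.23, limma adjusted p = 0.289). It was -0.43 (SE 0.19, limma adjusted p = 0.376) without that array. AT1G30700 ranged only from 9.92 to 10.38 over the 12 arrays and AT1G30710, a dim probe set, from 2.89 to 3.70. Neither was called in a tested comparison, with or without rb10 dark replicate 3. After light AT1G30700 differed by -0.30 (SE 0.12, limma adjusted p = 0.11), with the rb10 arrays all below the WT arrays, and AT1G30710 by -0.13 (SE 0.14, limma adjusted p = 0.57).

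Counted together, 4 of the 10 members were called between rb10 and WT after light by limma, 1 higher (AT1G26390) and 3 lower (AT1G30720, AT4G20830 and AT4G20860). Of all 17481 probe sets 19.2% were called there, 9.72% higher and 9.47% lower. With arrays set to equal medians, which puts the median difference over all probe sets at -0.17, 30.4% of all calls were higher in place of 50.7%. Without rescaling, the members' median difference was -0.18 and that over all probe sets -0.02. Without rb10 dark replicate 3 the same 4 members were called, where 23.6% of all probe sets were. The light arrays of rb10 lay wholly above those of WT for 3 members and wholly below for 5, against 18.9% and 19.7% of all probe sets. These shares describe 10 members and were not tested as a set.

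Light in WT gave 3 calls among the 10 members, all rises (AT1G26420, AT4G20830 and AT4G20860), where 6.89% of all probe sets were called and 4.62% rose. The array rb10 dark replicate 3 touches this contrast by way of the shared variance alone. Without it 5 of the 10 rose, AT1G26380 and AT1G26410 being added, where 8.78% of all probe sets were called and 5.3% rose. In a fit on the WT arrays alone 4 members were called as rises, as were 723 of 17481 probe sets. AT1G26410 was among the 4 (limma adjusted p = 0.0179) and AT1G26380 was not (limma adjusted p = 0.0696). The members' median light effect in WT was 0.39, against -0.06 over all probe sets.

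Light in rb10 gave 0 calls among the members by limma, with or without rb10 dark replicate 3, while 7.17% of all probe sets were called with every array and 6.34% without it. At an unadjusted p under 0.05 there were 2 members, where 20% of all probe sets passed, and 4 without that array, where 17.9% passed. The members' median light effect in rb10 was 0.08, or -0.10 without it. The difference of the light effects gave 0 calls by limma, where 2.17% of all probe sets were called, and 4 at an unadjusted p under 0.05, where 12.6% passed. Without rb10 dark replicate 3 it gave 1 (AT1G26380), where 2.25% were called, and 6 at an unadjusted p under 0.05, where 12.9% passed.

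**Figure D2:**
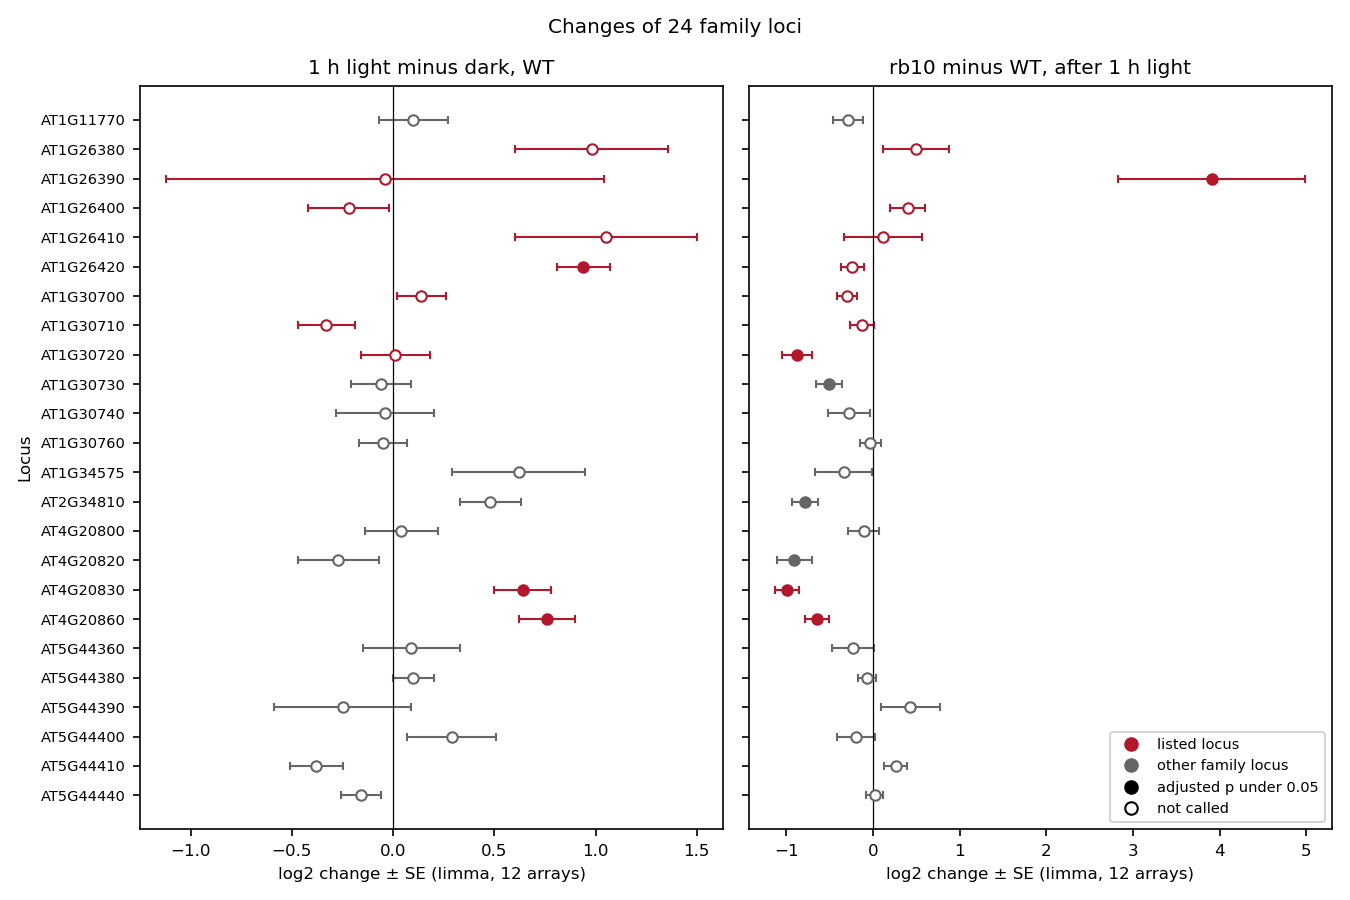
Log2 change with its SE (horizontal axis, limma fit on 12 arrays) of the 24 family loci with a probe set of their own, for light minus dark in WT (left) and rb10 minus WT after light (right), with filled points at an adjusted p under 0.05. AT1G26390 is the one called rise in rb10 after light at 3.91, and the 6 called falls lie between -0.99 and -0.51.

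Among the 14 other family loci, 3 (21.4%) were called between rb10 and WT after light, all lower in rb10, a share near the 19.2% of all probe sets. AT4G20820, next to AT4G20830 in gene order, read 7.62, 7.32 and 7.54 in rb10 after light, against 8.28, 8.61 and 8.32 in WT after light. The groups did not overlap, and the difference was -0.91 (SE 0.20, limma adjusted p = 0.0102). AT2G34810 averaged 4.93 ± 0.20 in rb10 and 5.71 ± 0.18 in WT after light (SD, n = 3 each), a difference of -0.78 (SE 0.15, limma adjusted p = 0.00583). AT1G30730, next to AT1G30720, averaged 7.96 ± 0.26 in rb10 and 8.47 ± 0.08 in WT after light (SD, n = 3 each), a difference of -0.51 (SE 0.15, limma adjusted p = 0.0336). The remaining 11 lay between -0.34 and 0.43 in that comparison. Light was followed by no call among the 14 in WT or in rb10 by limma with every array, with 2 in WT and 3 in rb10 at an unadjusted p under 0.05 (18.9% and 20% of all probe sets). Without rb10 dark replicate 3, none of the 14 passed in rb10, where 6.34% of all probe sets did. At an unadjusted p under 0.05 there was 1, where 17.9% of all probe sets passed. In WT AT5G44410 alone passed without that array (-0.38, SE 0.10, limma adjusted p = 0.0486), where 8.78% of all probe sets were called.

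AT1G30760, the monolignol oxidase, was among the steadiest of the family. It ranged from 8.27 to 8.67 over the 12 arrays, and rb10 and WT differed after light by -0.03 (SE 0.12, 95% interval -0.30 to 0.24). Of the pathways linked to these enzymes, 0 of 11 genes of indole carbonyl nitrile and camalexin synthesis, 1 of 14 immune response genes and 1 of 15 monolignol genes could be paired. The chitinase gene AT2G43570 (-0.26, SE 0.18, limma adjusted p = 0.358) and HCT (AT5G48930), an acyltransferase of monolignol synthesis (0.25, SE 0.12, limma adjusted p = 0.178), did not pass between rb10 and WT after light.

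Most of these loci sit beside one another, in 3 runs of family genes that hold the 10 members. Within 5 loci on either side of a run, or between its family genes, lay 36 other protein-coding genes, of which 22 had a probe set of their own. After light 3 of the 22 (13.6%) differed between rb10 and WT, where 19.2% of all probe sets did, and the gap between these shares was not tested. AT1G26450, the second gene beyond AT1G26420, was higher in rb10 by 1.37 (SE 0.23, limma adjusted p = 0.00282). AT1G30757, inside the second run, changed by -1.44 (SE 0.18, limma adjusted p = 0.000569), and AT4G20760 by 0.62 (SE 0.13, limma adjusted p = 0.00878). Light in WT moved 3 of the 22 (13.6%), where 6.89% of all probe sets were called, and this gap was not tested either. Among the 3 was AT4G20780 (CML42), a calmodulin-like gene shortly before the run on chromosome 4 in gene order, which rose by 1.87 (SE 0.33, limma adjusted p = 0.00506). On the other side of AT1G26390 from AT1G26380 lies AT1G26400, which differed by 0.40 (SE 0.20, limma adjusted p = 0.189) after light.

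**Figure D3:**
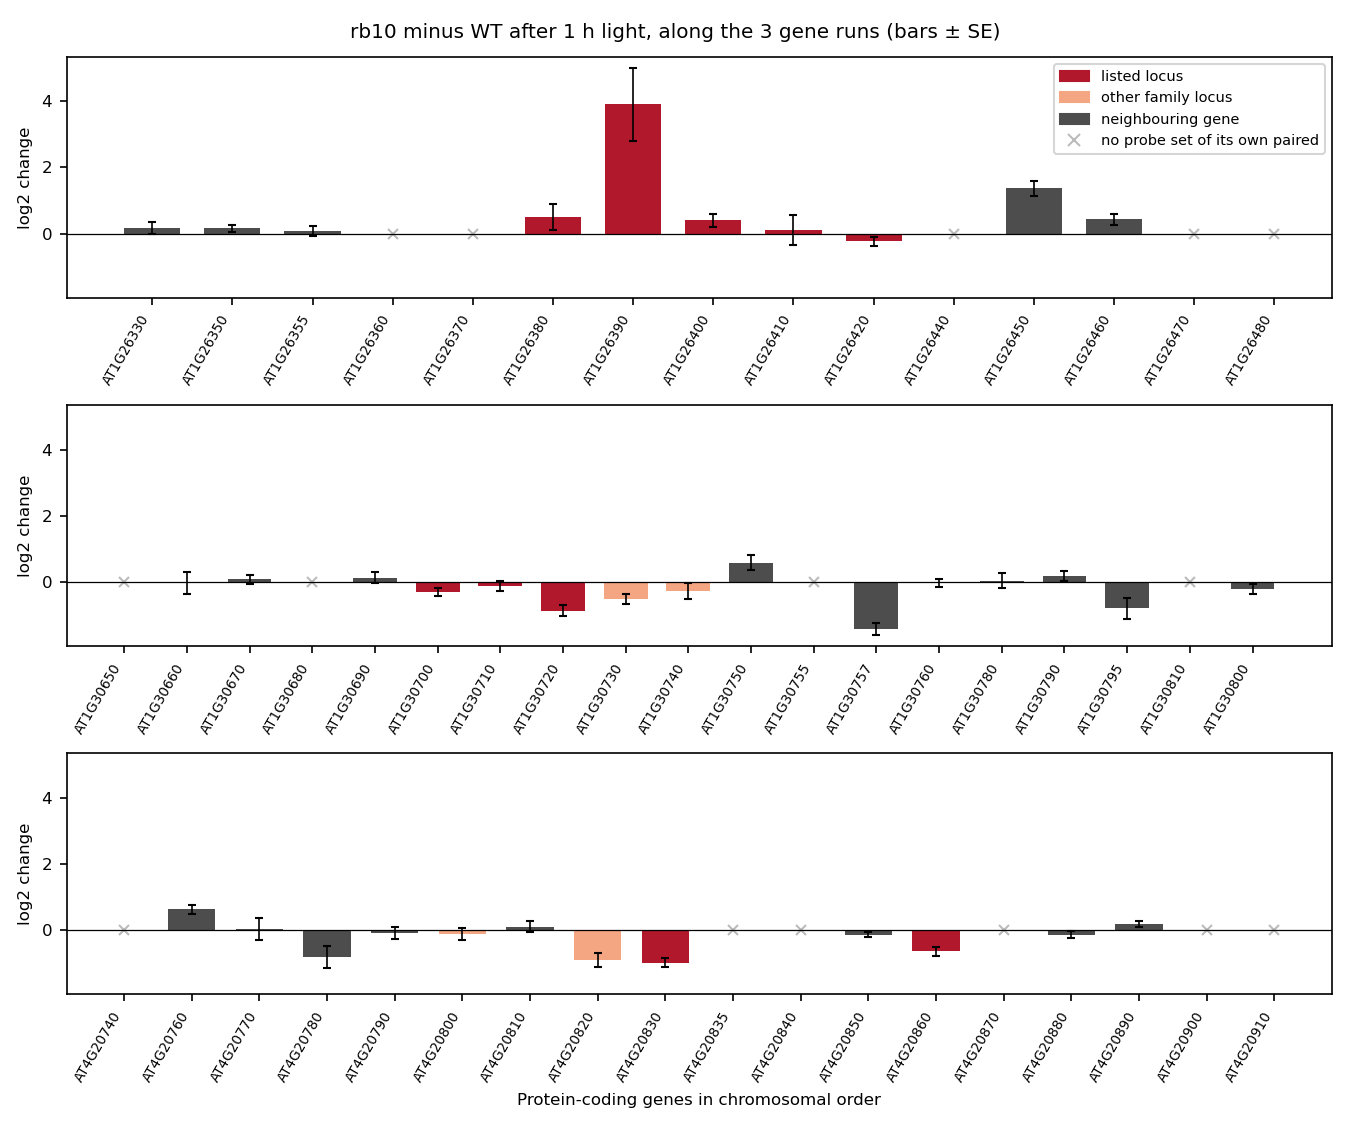
Log2 difference of rb10 minus WT after light (vertical axis, bars with SE) for protein-coding genes in chromosomal order along the 3 runs, with members in red, other family loci in orange, neighbours in dark grey and genes with no probe set of their own as crosses. AT1G26390 stands at 3.91 beside neighbours between -0.24 and 0.50 within its cluster.

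The genes outside the family whose signals followed AT1G26390 most closely over the 12 arrays were AT2G43390 (Pearson r = 0.975), AT5G12940 (0.974), AT5G42860 (0.974), AT4G21850 (0.971) and AT1G65370 (0.970), out of 16547 loci compared. The same 5 led without rb10 dark replicate 3, at r = 0.968 to 0.974. The values are given with no p, since the 12 arrays share the same 4 groups and are not independent points. AT4G21850 encodes MSRB9, a methionine sulfoxide reductase that repairs oxidised methionine. It read 12.01 to 12.06 in rb10 after light and 9.17 to 9.39 in WT after light. In darkness it read 12.36, 12.19 and 8.76 in rb10, against 8.90 to 8.95 in WT, with rb10 replicate 3 near WT. The 5 loci were chosen by likeness over arrays that include this one, so their values there are no separate evidence about it. Within the family AT1G26380 came nearest to AT1G26390 (r = 0.841, 677th of the 16547), then AT1G26410 (r = 0.703), while AT4G20820 ran most opposite (r = -0.908).

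**Figure D4:**
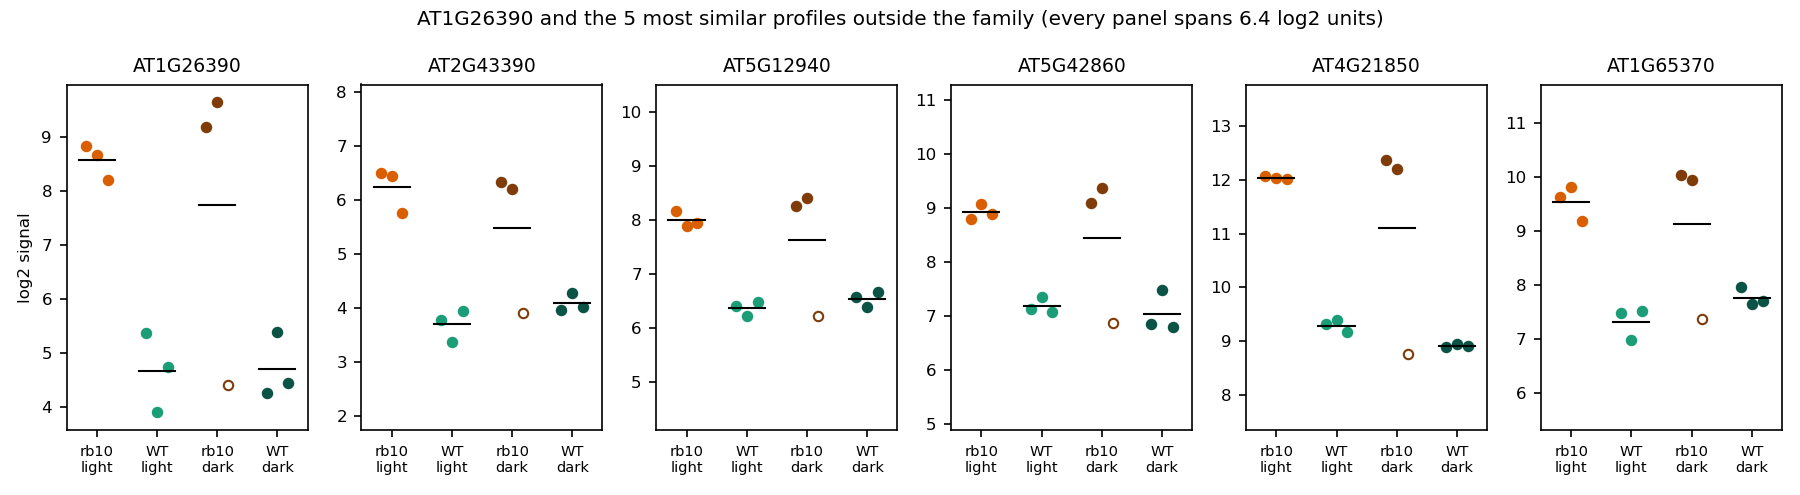
Log2 signal (vertical axis) of AT1G26390 and the 5 loci outside the family with the most similar profile, with a point per array, a bar at the group mean and rb10 dark replicate 3 as an open circle. Every locus is high on the 3 rb10 light arrays and on rb10 dark replicates 1 and 2, and low on the WT arrays and rb10 dark replicate 3. The 5 loci were chosen for their likeness to AT1G26390, so the shared pattern follows from the choice.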

How the data were processed

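The deposited values are log2 signals of 38408 probe sets on 12 arrays. Per the submitters' processing notes RMA and GCRMA were used, with no version and no statement of which gave these values; the genome build is not given in the sources used here. Probe sets were paired with loci through the platform annotation and a TAIR10.1 gene table (names and gene order only): 16722 with 1 gene, 759 with several and 20927 with none. All 17481 paired probe sets were fitted with 4 group means in limma 3.58.1 (R 4.3.3; lmFit, contrasts.fit, eBayes; 8 residual and 2.79 prior degrees of freedom). A call means p under 0.05 after Benjamini-Hochberg adjustment, done separately for each comparison. The same code was tested on simulated data with independent normal noise. The spread of that noise was taken without rb10 dark replicate 3, so no simulated array stood apart from its group. Members and lists were chosen with earlier results of these data known. Named genes were the members, called family loci, called neighbours, the pathway and marker lists' paired genes, RAPTOR1 and the 5 most similar profiles; AT1G30760, AT5G44410 and uncalled list genes were named outside that rule. Alternatives changed the normalization, prior, filter, probe sets and arrays used. Spread in the tests is that between pooled samples, and their small number limits precision. Counts over the other family loci were added after seeing the data. Cross-hybridisation between family members was not tested. Figures were drawn with matplotlib 3.10.9.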

Additional observations from a re-analysis of the deposited data

How the results depend on the processing

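Leaving out each of the 12 arrays in turn gave 2 to 5 members called for light in WT (3 with every array). Light in rb10 gave 0 to 0, genotype after light 3 to 4 (4) and the difference of the light effects 0 to 1 (0). Genotype in the dark, the contrast that chose the family, is left out of these counts. Of these fits, only that without rb10 dark replicate 3 had its calls over all probe sets counted. With a fold of at least 2 required as well, 0 members remained called for light in WT and 1 (AT1G26390) for genotype after light. Leaving out the lowest 25% of probe sets left 7 members tested and called 2 for light in rb10 (AT1G26420 and AT1G30720). In that setting 1476 of 13111 probe sets were called, and the cause of the added calls was not tested. A trended and robust prior called 1 member for light in rb10 (AT1G30720), where 1617 of 17481 probe sets were called. It called 1 for the difference of the light effects (AT4G20830, limma adjusted p = 0.0379), where 535 probe sets were called. The cause of these calls was not tested. The replicate block called 3 members for light in WT and 0 for light in rb10, where 1098 and 1137 probe sets were called. It called 4 for genotype after light and 0 for the difference of the light effects, where 3181 and 306 were called. The labels do not say whether samples with the same number belong together. The correlations of their deviations from the group means lay between -0.022 and 0.073. The counts of members in the other alternatives (groups alone, quantile normalization, equal medians, every probe set) stayed within 1.5 times. After light AT1G26420 was also called lower in rb10 by quantile normalization (limma adjusted p = 0.0493) and by equal medians (0.0389). AT1G30700 was called lower by equal medians (0.0363). The median difference over all probe sets was -0.17 by equal medians and -0.08 by quantile normalization, against -0.02 without rescaling. Of 17481 probe sets 2656 and 1962 were called lower there, against 1655 without rescaling. The part of this shift in the added calls was not tested. No called member changed sign in any alternative.

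Over all probe sets, a fold of 2 left 555, 484 and 1197 calls for light in WT, light in rb10 and genotype after light, where the adjusted p alone gave 1204, 1254 and 3355. The groups alone gave 580 for light in rb10. Testing all 38408 probe sets gave 2289, 2210, 6251 and 597 calls (380 in the last, the difference of the light effects, with paired probe sets). Genotype in the dark had 1 call, and 0 with the block, the groups alone, every probe set or the trended prior. All of these keep rb10 dark replicate 3. Without that array 1761 probe sets (10.1%) were called. AT1G26380, AT1G26400 and AT1G30710 were dim throughout, and detection over background was not analysed here.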

Other observations

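A probe set that the platform annotation pairs with both AT4G20840 and AT4G20830 was left out of the family counts, because it cannot be assigned to 1 gene. Oligogalacturonide oxidases are encoded at both loci. It read 8.37, 8.16 and 8.09 in WT after light, against 9.21, 9.17 and 8.65 in WT in the dark, a change of -0.81 (SE 0.17, limma adjusted p = 0.0129). That is the opposite direction to the probe set of AT4G20830 alone, which rose by 0.64 in the same comparison. In rb10 the shared probe set read 8.40, 8.69 and 8.65 after light, against 9, 8.71 and 9.01 in the dark, a change of -0.33 (SE 0.17, limma adjusted p = 0.315), or -0.27 (SE 0.19, limma adjusted p = 0.526) without rb10 dark replicate 3. Between rb10 and WT after light it differed by 0.38 (SE 0.17, limma adjusted p = 0.145). A second shared probe set, paired with AT1G11780 and the family locus AT1G11770, was not called in any of the tested comparisons.

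CML42 (AT4G20780), close to the AT4G20830 run in gene order, had a light effect of 0.15 in rb10 (SE 0.33, limma adjusted p = 0.864) beside its rise of 1.87 in WT. Without rb10 dark replicate 3 the rb10 effect had the other sign, at -0.20 (SE 0.30, limma adjusted p = 0.824). The difference of these light effects was -1.73 (SE 0.47, limma adjusted p = 0.107), and -2.07 (SE 0.40, limma adjusted p = 0.0296) without rb10 dark replicate 3.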
